A study of Mus musculus with 7 samples.

Results

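Interferon-stimulated genes are the transcripts that cells raise when they sense viral nucleic acid or interferon, and a set of 36 of them was followed in mouse livers that had received viral vectors. The genes were taken by symbol, and each was read from the brightest probe set annotated with that gene alone. This gave 31 of the 36 genes, out of 19933 genes on the array. The rows of Isg15, Gbp2, Igtp and Irgm2 also carry another gene's symbol, and no row named Ifi44, so these 5 were not analysed here.

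The livers came from male C57BL/6 mice 4 months of age on normal chow, fed ad libitum and collected 2 weeks after injection at 5 pm (ZT10). In the HDAC3 knockout group (3 livers, 1 array each) the mice had received AAV-Cre, that is Cre recombinase packed in an adeno-associated viral vector. In the HDAC3 rescued group (4 livers) they had received AAV-Cre together with AAV-Flag-HDAC3, a vector for the wild-type histone deacetylase HDAC3. All mice therefore carried at least 1 vector, the rescued mice carried an additional one, and no liver without a vector was analysed here. Loss of HDAC3 and the smaller number of vectors cannot be told apart in this comparison. The titles call the rescued arrays wild type, the labels name neither the promoter of the vectors nor the Hdac3 allele that Cre acts on, and the arrays are called biological replicates. Hdac3 itself was at 8.92 ± 0.16 in the knockout group (SD, n = 3) and 9.40 ± 0.13 in the rescued group (SD, n = 4), which is a difference of -0.48 (limma, adjusted p = 0.0124). Its call was lost without knockout replicate 1.

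Cells detect foreign nucleic acid through sensors such as RIG-I and MDA5 for RNA and cGAS or TLR9 for DNA, which leads to interferon release. Type I interferon then acts through its receptor, the kinases JAK1 and TYK2 and a complex that holds STAT2 and IRF9, which binds the interferon-stimulated response element in the promoters of antiviral genes. Interferon gamma acts mainly at another element, the gamma-activated site. In the liver, hepatocytes, Kupffer cells and sinusoidal endothelial cells can all respond.

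The promoter windows of the genes show these elements. RefSeq windows from GRCm38.p6, which run from 250 bases before to 50 bases after a gene's start, were matched by symbol for 29 of the 36 genes, and there was no entry for Dhx58, Usp18, Mx1, Mx2, Oas1b, Oas2 or Tap2. The core of the interferon-stimulated response element, searched on both strands as GAAA, any 2 bases and GAAA again, was found for 16 of the 29 genes (55.17%), against 3.99% of 27025 genes with a window. The gamma-activated site, searched as TTCNNNGAA, which reads the same on both strands, was found for 10 of them (34.48%), against 9.55% of all genes with a window. Both were found for 5 genes, neither for 8, and matches of the motifs overlapped in 1 gene. In the following stretches the capitals mark the matched letters, and each stretch is written along the strand of its gene. The first 6 show the response element in genes that differed in opposite directions or hardly at all between the groups, and the last 2 show the gamma-activated site of a factor gene and an immunoproteasome gene.
Rsad2: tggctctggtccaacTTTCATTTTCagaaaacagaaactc
Oas1a: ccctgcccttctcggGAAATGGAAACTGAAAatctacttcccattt
Ifit1: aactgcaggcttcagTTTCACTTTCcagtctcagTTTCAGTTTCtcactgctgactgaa
Ifit3: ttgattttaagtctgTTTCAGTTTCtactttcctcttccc
Gbp7: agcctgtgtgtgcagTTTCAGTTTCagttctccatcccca
Irgm1: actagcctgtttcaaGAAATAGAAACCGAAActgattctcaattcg
Irf1: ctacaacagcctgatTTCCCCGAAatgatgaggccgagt
Psmb8: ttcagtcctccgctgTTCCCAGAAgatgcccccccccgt
These lie at chr12:26456548-26456587 (minus strand, Rsad2), chr5:120907515-120907560 (minus, Oas1a), chr19:34640770-34640828 (plus, Ifit1), chr19:34583392-34583431 (plus, Ifit3), chr3:142530268-142530307 (plus, Gbp7), chr11:48871420-48871465 (minus, Irgm1), chr11:53769909-53769947 (plus, Irf1) and chr17:34198083-34198121 (plus, Psmb8). Ifit1 holds 2 separate matches, and in Oas1a and Irgm1 2 matches overlap. A match describes letters in a window and is not shown to be a bound site.

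The interferon-stimulated genes as a group hardly separated the livers. At an adjusted p under 0.05 in limma's moderated test, 1 of the 31 measured genes was higher in the knockout livers, the antiviral gene Rsad2, and 1 was lower, the RNA sensor gene Dhx58. Among all genes tested, 9.54% were called higher and 4.85% lower, 14.4% in either direction, while 6.45% of the interferon-stimulated genes were called. The median difference of the 31 genes, knockout minus rescued on the log2 scale, was 0.0075, with 17 genes above 0. The median over all genes was 0.09, with 13659 of 19933 genes above 0. The median size of the difference, regardless of sign, was 0.10 for the 31 genes and 0.14 for all genes. In bulk liver, fewer cells of a type and less RNA per cell cannot be told apart.

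The livers bounded these differences closely. For 30 of the 31 genes the 95% confidence interval of the difference, taken gene by gene and not adjusted for their number, lay within a 1.5-fold change in either direction. Rsad2 was the exception, with an interval of 0.18 to 0.72. Over all genes 93.5% had such an interval. At an unadjusted p under 0.05 there were 9 of 31 interferon-stimulated genes, and 35.7% of all genes.

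**Figure D1:**
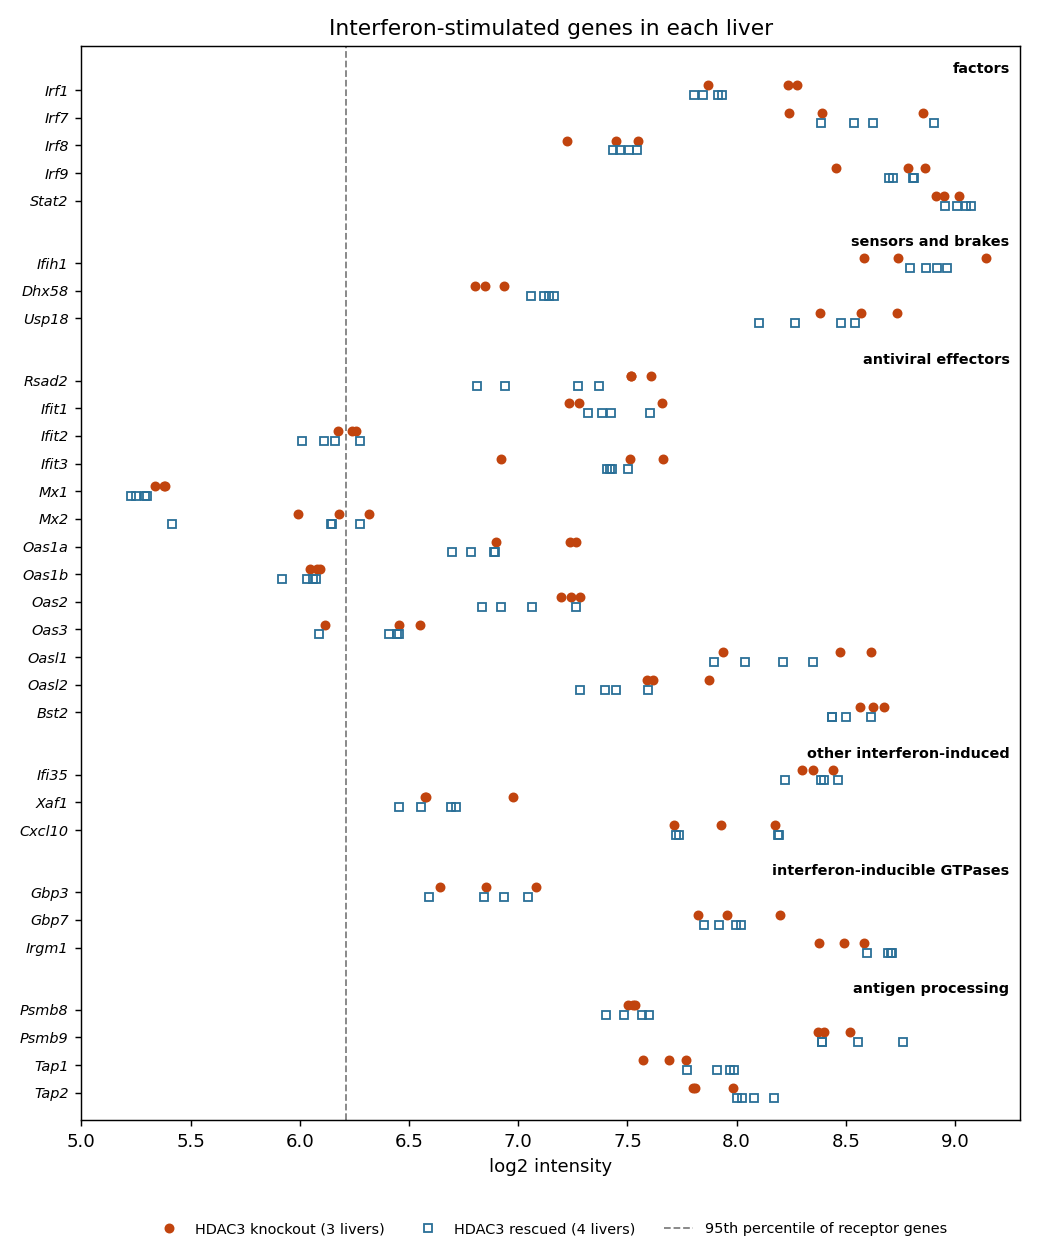
Log2 intensity (horizontal axis) of the 31 measured interferon-stimulated genes in each liver, ordered by role, with knockout livers as filled circles above and rescued livers as open squares below on each row. The dashed line at 6.21 is the 95th percentile of 1194 olfactory and vomeronasal receptor genes. The circles and squares of most genes share a range, while those of Rsad2, Oas1a, Mx1, Dhx58, Irgm1, Tap1 and Tap2 do not overlap. These are 22.6% of the 31 genes, beside 29.6% of all genes.

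Level was set against the receptor genes, which liver is not known to use. A gene was taken as above background where its mean over the 7 arrays passed the 95th percentile of these receptor genes, at 6.21 on the log2 scale, and 27 of the 31 genes did. The brightest, by mean over all livers, were Stat2 (8.91 to 9.07 over the livers), Ifih1 at 8.86, Irf9 at 8.73 and Irgm1 at 8.59, and probe sets of different genes are not comparable in brightness, so this is no order of transcript number. The 4 genes not above background were Mx1 (5.31), Oas1b (6.04), Mx2 (6.07) and Ifit2 (6.18). Mx1 encodes a dynamin-like GTPase against influenza viruses and is known to carry an inactivating deletion in C57BL/6 mice, and Oas1b is known to be truncated in this strain.

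Among the factor genes none passed the test. Irf1, a first-wave activator that interferon gamma induces, was at 7.87, 8.28 and 8.24 in the knockout livers and at 7.84, 7.93, 7.81 and 7.91 in the rescued livers. Knockout replicates 2 and 3 lay above all rescued livers, while knockout replicate 1 lay among them, so the groups overlapped. The difference was 0.25 (SE 0.10, adjusted p = 0.0956), 0.16 at a second, dimmer probe set of Irf1, and 0.38 with a call (adjusted p = 0.0257) without knockout replicate 1. This was the only call of Irf1 among 16 alternatives. Without knockout replicate 2 or 3 the difference was 0.18 or 0.20 (limma, adjusted p = 0.253 and 0.227).

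The other factor genes differed by -0.12 to -0.06. Stat2, a subunit of the complex that type I interferon activates, was at 8.95, 8.91 and 9.02 in knockout livers and 8.95, 9.07, 9.01 and 9.05 in rescued livers. The groups of Stat2 overlapped only in part. The partner of Stat2 in that complex, Irf9, was at 8.70 ± 0.22 in the knockout group (SD, n = 3) and 8.76 ± 0.06 in the rescued group (SD, n = 4). Irf7, the factor that amplifies interferon alpha genes, was at 8.39, 8.86 and 8.24 in knockout livers and 8.39, 8.90, 8.62 and 8.54 in rescued livers. The spread of Irf7 within each group was thus larger than its difference between the groups, -0.12 (adjusted p = 0.575). Irf8, a factor of macrophages and dendritic cells, differed by -0.08 (adjusted p = 0.475).

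Dhx58 fell in the knockout livers. It encodes LGP2, a helicase of the RIG-I family that binds viral RNA and modulates the sensors RIG-I and MDA5. Its level was 6.80, 6.93 and 6.85 in the knockout livers, against 7.16, 7.06, 7.14 and 7.12 in the rescued livers. The highest knockout liver was thus below the lowest rescued one. This is 1.20-fold lower, a difference of -0.26 with an SE of 0.07 (limma, adjusted p = 0.0302). It was also called after quantile normalization, median centring and cyclic loess, with differences of -0.35 to -0.34, but not when knockout replicates 1 or 3 or any of rescued replicates 2, 3 and 4 were left out, where adjusted p reached 0.0896, nor with the replicate number as a block (adjusted p = 0.0751).

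The sensor and brake genes beside it did not pass. Ifih1, which encodes the RNA sensor MDA5, was at 8.74, 9.14 and 8.58 in knockout livers and 8.92, 8.79, 8.87 and 8.96 in rescued livers, with a difference of -0.06 (adjusted p = 0.697). The highest and the lowest Ifih1 value both came from knockout livers. Usp18, which removes ISG15 from proteins and dampens the type I receptor, was at 8.56 ± 0.18 in the knockout group (SD, n = 3) and 8.35 ± 0.20 in the rescued group (SD, n = 4), with a difference of 0.22 (adjusted p = 0.197).

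Rsad2 was higher in the knockout livers. It encodes viperin, a radical SAM enzyme that makes a chain-terminating nucleotide and blocks the replication of many viruses. Its level was 7.52, 7.61 and 7.52 in the knockout livers, against 6.81, 7.27, 6.94 and 7.37 in the rescued livers. The knockout livers were tightly grouped and all above the rescued livers, which were spread over more than 0.5. This is 1.36-fold higher, a difference of 0.45 with an SE of 0.12 (limma, adjusted p = 0.0372). The call was lost after quantile normalization (adjusted p = 0.0519), median centring (0.0850), cyclic loess (0.0664) and with array weights (0.0642), and without any 1 knockout replicate or without rescued replicate 1 or 3 (up to 0.104). The difference stayed between 0.35 and 0.54 in all settings.

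The oligoadenylate synthetases make the messenger that activates the nuclease RNase L, and the 6 genes of this family and its OASL branch in the set all had differences above 0, as had 13659 of all 19933 genes, while none passed. A further member on the array, Oas1c, was not above background and differed by 0.08 (adjusted p = 0.537). Oas1a was at 6.90, 7.27 and 7.24 in knockout livers and 6.90, 6.89, 6.79 and 6.70 in rescued livers, with a difference of 0.32 (SE 0.10, adjusted p = 0.0522). The groups of Oas1a did not overlap, but only just, since knockout replicate 1 (6.896) and rescued replicate 1 (6.895) were almost equal. It was called in limma's test among the genes above background (adjusted p = 0.0452), among those above the median level (0.0468), with trend and robust spread (0.0471), with array weights (0.0457) and without knockout replicate 1 (0.0255, with a difference of 0.43). In the same test it was not called after quantile normalization (adjusted p = 0.191), median centring (0.177) or cyclic loess (0.194), and its groups then overlapped. Nor was it called with the replicate block (0.0995) or with any other liver left out (up to 0.140). Oas1a has close paralogs that its probes could read as well.

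Oasl2 was at 7.62, 7.87 and 7.59 in knockout livers and 7.40, 7.59, 7.28 and 7.45 in rescued livers (difference 0.26, adjusted p = 0.0784). Oas2 was at 7.19, 7.24 and 7.28 in knockout livers and 6.83, 7.27, 6.92 and 7.06 in rescued livers (difference 0.22, adjusted p = 0.132). In both, rescued replicate 2 was the highest rescued liver and reached into the knockout range. Oasl1, known to restrain translation of Irf7 in the mouse, was at 8.47, 8.62 and 7.94 in knockout livers and 8.21, 8.04, 7.90 and 8.35 in rescued livers, a difference of 0.22 within the spread of the livers (adjusted p = 0.308). Oas3 and Oas1b differed by 0.03 and 0.05, and both turned below 0 after quantile normalization, median centring and cyclic loess.

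The IFIT genes, whose proteins bind foreign RNA ends, did not pass either. Ifit1 was at 7.23, 7.66 and 7.28 in knockout livers and 7.32, 7.43, 7.38 and 7.60 in rescued livers, with a difference of -0.04 (adjusted p = 0.782) and an interval of -0.28 to 0.19. Ifit3 was at 7.51, 7.66 and 6.92 in knockout livers and 7.42, 7.40, 7.50 and 7.43 in rescued livers, with a difference of -0.07 (adjusted p = 0.724). The low value of knockout replicate 3 set the sign of Ifit3, whose difference was 0.15 without that liver. Ifit2 was near background, with a difference of 0.08 that turned to -0.06 after quantile normalization.

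Bst2, which encodes tetherin, a membrane anchor that holds budding virions, was at 8.62 ± 0.05 in the knockout group (SD, n = 3) and 8.50 ± 0.08 in the rescued group (SD, n = 4) (difference 0.13, adjusted p = 0.222). Mx1 and Mx2 were not above background, and their differences of 0.10 and 0.17 carry no fold. Of the 13 antiviral effector genes 11 had differences above 0 as deposited, where most of all genes did too, and the sign of Ifit2, Mx1, Oas1b and Oas3 among these turned in at least 1 of the 3 rescalings.

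Cxcl10 encodes a chemokine that draws T cells and is a sensitive marker of interferon exposure. It was at 7.71, 8.18 and 7.93 in knockout livers and 7.72, 8.19, 7.74 and 8.19 in rescued livers. Each group thus spanned nearly the same range, and the difference was -0.02 (SE 0.14, adjusted p = 0.927). Ifi35, a leucine zipper protein gene, differed by -0.0048 and Xaf1, an antagonist of the apoptosis inhibitor XIAP, by 0.11, and both signs turned after quantile normalization and cyclic loess.

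None of the 3 measured GTPase genes passed the test, and their proteins attack the vacuoles of intracellular pathogens. Irgm1, which controls autophagy and the other immunity-related GTPases, was at 8.38, 8.58 and 8.49 in knockout livers and 8.69, 8.71, 8.60 and 8.71 in rescued livers. All 3 knockout values lay below the rescued ones, and the difference was -0.19 (SE 0.07, adjusted p = 0.0868). The guanylate-binding protein genes Gbp3 and Gbp7 differed by 0.0059 and 0.05 (adjusted p = 0.974 and 0.732), and both signs turned after median centring.

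The genes of antigen processing for class I presentation did not pass, with the peptide transporter genes lowest. Tap1, a subunit of the peptide transporter of the endoplasmic reticulum, was at 7.69, 7.77 and 7.57 in knockout livers and 7.97, 7.91, 7.77 and 7.99 in rescued livers (difference -0.23, SE 0.08, adjusted p = 0.0669). Its partner subunit Tap2 was at 7.86 ± 0.10 in the knockout group (SD, n = 3) and 8.07 ± 0.08 in the rescued group (SD, n = 4) (difference -0.20, adjusted p = 0.0836). In both genes every knockout liver lay below every rescued liver. For Tap1 this held only just, with 7.7696 in knockout replicate 2 and 7.7725 in rescued replicate 3. Both were called lower in limma's test after median centring (adjusted p = 0.0171 and 0.0374), as was Irgm1 (0.0333), where 9.04% of all genes were, beside 4.85% as deposited. None of these genes was called after quantile normalization or cyclic loess (adjusted p of 0.0722 to 0.240). The groups of Tap1 and Tap2 overlapped after quantile normalization, and those of Tap2 also after cyclic loess. The immunoproteasome genes Psmb8 and Psmb9 differed by 0.0075 and -0.09. Tap1 and Psmb9 lie head to head, and their promoter windows share 275 bases.

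**Figure D2:**
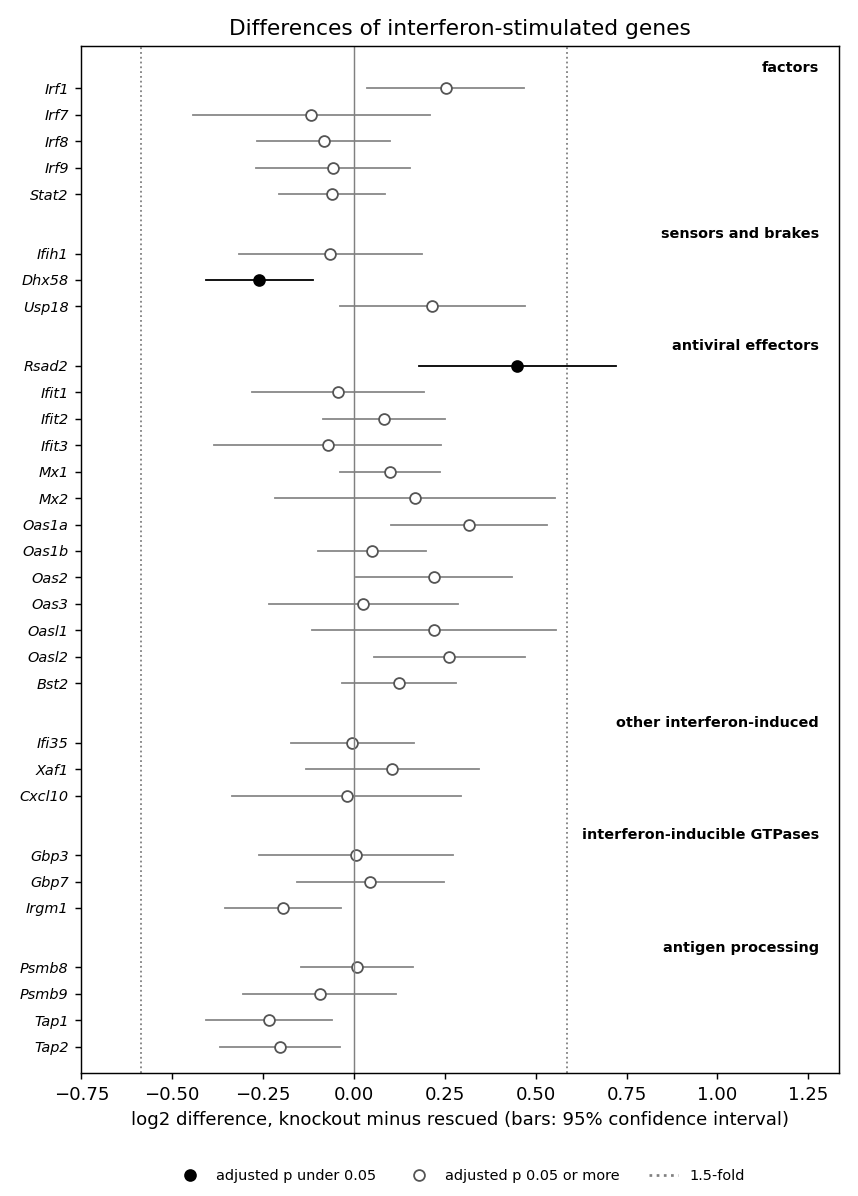
Difference in log2 intensity, knockout minus rescued, for the 31 measured genes by role, with bars for the 95% confidence interval of each gene and filled points for an adjusted p under 0.05. Rsad2 (0.45) and Dhx58 (-0.26) are the filled points, and the interval of every gene but Rsad2 stays inside the dotted lines at a 1.5-fold change.

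The groups did not overlap for 3 genes that were higher in the knockout livers (Rsad2, Oas1a and Mx1) and 4 that were lower (Dhx58, Irgm1, Tap1 and Tap2), 22.6% of the 31 genes. Over all genes 29.6% did not overlap, 21% higher and 8.56% lower. After quantile normalization the count was 2 higher and 1 lower, with 24.4% over all genes. After median centring it was 1 and 5, with 27% over all genes, and after cyclic loess 1 and 2, with 24.6%. Rsad2 and Dhx58 were separated in each of these 4 scalings. The arrays were not level as deposited, with median intensities of 105 to 111 in knockout and 96.3 to 102 in rescued arrays, and the part of this offset in the separations was not tested.

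Measured genes with the response element core in their promoter window did not stand apart from those without it. The 12 with a match had a median difference of -0.0070, with 6 above 0 and a range of -0.19 to 0.45. The 12 with a window and no match had a median of 0.0014, with 6 above 0 and a range of -0.23 to 0.26. Both ends of the range among the genes with a match, Irgm1 and Rsad2, are shown among the sequences above.

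**Figure D3:**
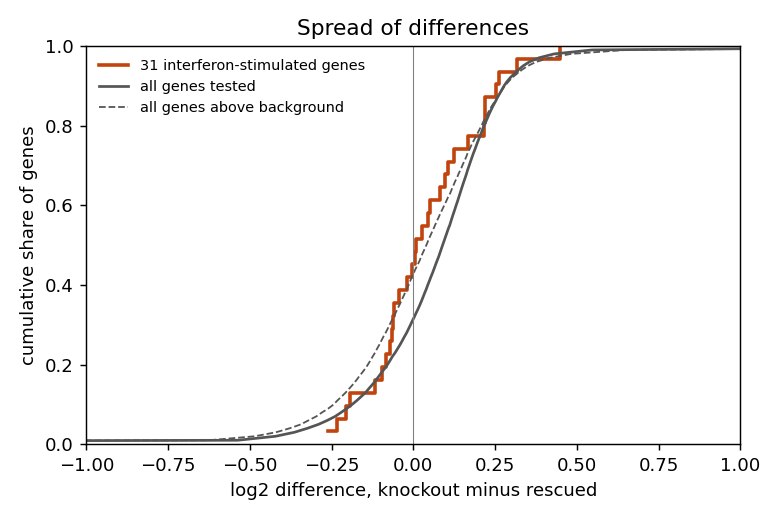
Cumulative share of genes (vertical axis) by log2 difference, knockout minus rescued (horizontal axis, cut at -1 and 1), for the 31 interferon-stimulated genes, all 19933 genes and the genes above background. The step line of the interferon-stimulated genes crosses 0 close to its middle (median 0.0075), while the curve of all genes lies to the right (median 0.09).

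The genes varied more from liver to liver than most transcripts did. The median residual SD within groups was 0.15 for the 31 genes and 0.11 for all genes, and 0.15 and 0.11 among the genes above background. The variation had a shared pattern. Knockout replicate 2 held the highest knockout value for 22 of the 31 genes, whereas it was the highest for 30.0% of all genes. In this liver 27 of the 31 lay above their knockout mean, beside 47.3% of all genes. Its median deviation from the knockout mean was 0.10 over the 31 genes and -0.0064 over all genes.

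In the rescued group, replicate 4 was the highest liver for 12 genes and replicate 2 for 10, against 27.3% and 18.1% of all genes. Rescued replicates 2 and 4 lay above the rescued mean for 22 and 20 of the 31 genes, beside 47.1% and 55.1% of all genes. Replicates 1 and 3 did so for 13 and 10, beside 55.9% and 41.7% of all genes. Cxcl10 shows the pattern plainly, with 8.18 in knockout replicate 2 and 8.19 in both rescued replicates 2 and 4, against 7.71 to 7.93 in the other 4 livers. Gbp3 (7.08), Ifih1 (9.14), Usp18 (8.73) and Xaf1 (6.98), unlike Cxcl10, had their highest value of all 7 livers in knockout replicate 2. Genes of 1 liver share their sample, so these counts describe 7 livers and carry no test.

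**Figure D4:**
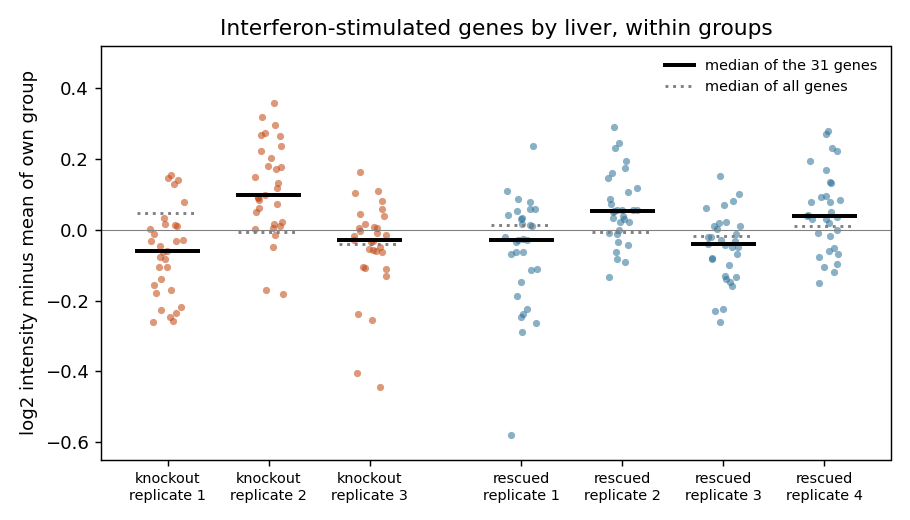
Log2 intensity of each of the 31 genes minus the mean of its own group (vertical axis) in each liver, as points, with solid bars for their median and dotted bars for the median of all genes. Knockout replicate 2 has the highest solid bar (0.10) and knockout replicate 1 the lowest (-0.06), on opposite sides of their dotted bars.

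Other genes of the pathway were grouped into 5 lists of 121 symbols, of which 104 were measured, and 13 of these were higher and 4 lower in the knockout livers. This is 16.3% of them, beside 14.4% of all genes. Of the 17 calls, 7 were also made in each of the 3 rescalings, 4 higher (Ifnar2, Ly6e, Psme1 and Nlrc5) and 3 lower (Ifngr1, Pias1 and Ifi27). With each liver left out in turn, Ifnar2, Ifngr1, Psme1 and Nlrc5 kept their calls every time. Calls over all genes also changed with the liver left out. They ran from 2.25% (without knockout replicate 1) to 11.0% (without rescued replicate 1) higher, beside 9.54% with all livers. Lower calls ran from 2.09% (without rescued replicate 3) to 5.34% (without rescued replicate 1), beside 4.85%. Calls lost with a liver left out are to be read beside these shares.

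Of the 6 receptor subunit genes, Ifnar2 and Ifnlr1 were called higher and Ifngr1 lower, while Ifnar1 (difference -0.09, adjusted p = 0.469), Ifngr2 (-0.13, 0.200) and Il10rb (0.03, 0.733) were not called. Ifnar2, a subunit of the type I interferon receptor, was at 11.08, 11.00 and 11.02 in knockout livers, against 10.44, 10.72, 10.67 and 10.65 in rescued livers, 1.33-fold higher (adjusted p = 0.0104). Ifngr1, the ligand-binding subunit of the interferon gamma receptor, was at 8.36, 8.26 and 8.34 in knockout livers, against 8.68, 8.72, 8.79 and 8.76 in rescued livers, 1.34-fold lower (adjusted p = 0.00432). Of 16 measured receptor, kinase and regulator genes 4 were higher and 2 lower, 37.5% of them beside 14.4% of all genes. Socs3, a feedback inhibitor of JAK kinases that STAT3 induces, was 1.40-fold higher (adjusted p = 0.0258) and Pias1, a SUMO ligase, was 1.26-fold lower (adjusted p = 0.0315). Stat3, the main factor of IL-6 signalling, was 1.31-fold higher (adjusted p = 0.0449), and the remaining higher gene, Ifnlr1, was not above background. The call of Socs3 needed knockout replicates 1 and 3 and rescued replicates 3 and 4, with differences of 0.38 to 0.55 as single livers were left out. That of Pias1 needed knockout replicates 1 and 3 and all rescued replicates but 1 (-0.41 to -0.27), that of Ifnlr1 needed every liver but rescued replicate 1 (0.19 to 0.25), and that of Stat3 needed every liver (0.27 to 0.47). The calls of Stat3 and Ifnlr1 were lost in all 3 rescalings, where the difference of Ifnlr1 was 0.08 to 0.14, and Socs3 was called in 2 of them.

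Among 12 measured genes of class I presentation 2 were higher and none lower, 16.7% of them beside 14.4% of all genes. Psme1, a subunit of the PA28 activator of the proteasome, was at 10.36, 10.25 and 10.31 in knockout livers, against 9.89, 9.89, 9.91 and 9.80 in rescued livers, 1.35-fold higher (adjusted p = 0.00327). Nlrc5, the transactivator of class I genes, was at 10.09, 10.08 and 10.13 in knockout livers, against 9.80, 9.75, 9.66 and 9.66 in rescued livers, 1.30-fold higher (adjusted p = 0.00731). In both genes the knockout livers lay above all rescued livers, while the differences of Tap1 and Tap2 had the opposite sign and did not pass.

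Of 19 measured nucleic acid sensing genes 2 were higher and 1 lower, 15.8% of them beside 14.4% of all genes. Zbp1, a sensor of Z-form nucleic acid, was at 8.08 ± 0.08 in the knockout group (SD, n = 3) and 7.74 ± 0.11 in the rescued group (SD, n = 4) (adjusted p = 0.0214), and Sting1, the adaptor of cGAS, at 7.24 ± 0.07 in the knockout and 6.94 ± 0.10 in the rescued livers (adjusted p = 0.0301). The call of Sting1 was lost in all 3 rescalings and that of Zbp1 in 1 of them. The lower gene was Traf6, an adaptor of Toll-like receptors, with a difference of -0.29 (adjusted p = 0.0451), called in 1 of the 3 rescalings. The call of Zbp1 needed knockout replicate 2 and rescued replicates 2 and 3, with differences of 0.31 to 0.39 as single livers were left out. That of Sting1 needed knockout replicates 1 and 2 and rescued replicates 3 and 4 (0.26 to 0.33), and that of Traf6 every liver but rescued replicate 1 (-0.37 to -0.23).

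Of 43 other interferon-stimulated genes 3 were higher and 1 lower. Ly6e, a membrane protein that blocks coronavirus entry, was at 12.16 ± 0.19 in the knockout group (SD, n = 3) and 11.69 ± 0.14 in the rescued group (SD, n = 4), 1.39-fold higher (adjusted p = 0.0182). Helz2, a nuclear receptor coactivator with helicase domains, was 1.26-fold higher (adjusted p = 0.0274) and Iigp1, an immunity-related GTPase, 1.23-fold higher (adjusted p = 0.0378). Ifi27 fell, to 9.21 ± 0.20 in the knockout group (SD, n = 3) against 9.71 ± 0.17 in the rescued group (SD, n = 4), 1.42-fold (adjusted p = 0.0196). The call of Ly6e needed knockout replicates 1 and 2 and rescued replicate 3, with differences of 0.40 to 0.58 as single livers were left out. Those of Helz2 (0.29 to 0.41) and Ifi27 (-0.61 to -0.41) needed knockout replicates 1 and 3 and rescued replicates 2 and 3, and that of Iigp1 every liver but knockout replicate 1 (0.25 to 0.37). Iigp1 was called in none of the 3 rescalings and Helz2 in 2.

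Most of the interferon genes themselves were not above background. Of 14 measured ligand genes 4 were above background, and Ifnb1 (4.61) and Ifng (6.20) were not. Ifna5 and Ifna9 were called higher (differences 0.33 and 0.25, adjusted p = 0.0431 and 0.0445), 14.3% of the ligand genes beside 14.4% of all genes. Ifna9 was not above background and had no call in any rescaling, Ifna5 had a call in 1, and both calls needed every liver but rescued replicate 1, with differences of 0.25 to 0.38 for Ifna5 and 0.20 to 0.29 for Ifna9 as single livers were left out. These genes form a family of near-identical members that probes can confuse.

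**Figure D5:**
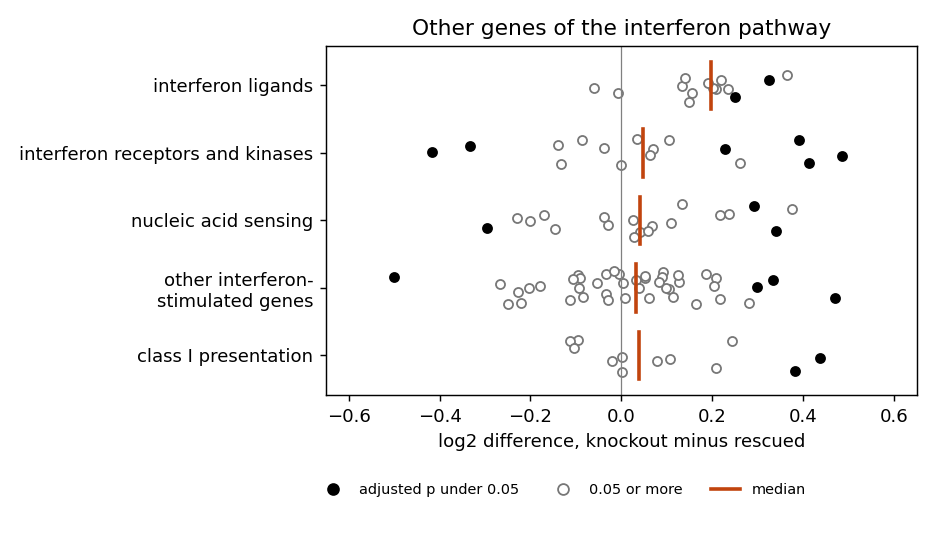
Log2 difference, knockout minus rescued, of the 104 measured genes in the 5 lists of other pathway genes, 1 point a gene, filled where adjusted p was under 0.05, with vertical bars for list medians. Filled points lie on both sides of 0 in the receptor, sensing and interferon-stimulated lists, and the ligand list, most of it not above background, has the highest median (0.20).

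Cell type markers were read in the same arrays, because immune cells carry many of these transcripts. Calls among the markers are to be read beside the 14.4% of all genes called. All 9 measured hepatocyte markers were above background and none was called, and their summed linear intensity was 85498 to 88430 in knockout and 84753 to 89345 in rescued livers. The 11 Kupffer cell and macrophage markers, none of them called, summed to 4761 to 5059 in knockout and 3658 to 5465 in rescued livers. The 17 T and NK cell markers, 9 of them not above background, summed to 1151 to 1198 in knockout and 1013 to 1074 in rescued livers, with 1 called, Cd8b1 (difference 0.26, adjusted p = 0.0393). The 7 monocyte and neutrophil markers, 3 of them above background, summed to 830 to 896 in knockout and 619 to 833 in rescued livers, with 1 called higher, Ccr2, which was not above background. Neither Cd8b1 nor Ccr2 was called in any rescaling, and both calls were lost without knockout replicate 1 or any of rescued replicates 2, 3 and 4 (differences 0.21 to 0.30 and 0.22 to 0.30), as they were without knockout replicate 3 for Cd8b1 and knockout replicate 2 for Ccr2.

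The 5 B cell markers, 2 of them above background, summed to 315 to 360 in knockout and 292 to 311 in rescued livers, and 7 dendritic cell markers, 4 of them above background, to 581 to 630 in knockout and 551 to 597 in rescued livers, with none called. The 6 sinusoidal endothelial markers summed to 3849 to 4595 in knockout and 4618 to 4758 in rescued livers, with 1 called lower, Clec4g (difference -0.29, adjusted p = 0.0477), which was called in 2 of the 3 rescalings and with knockout replicate 2 left out, but with no other liver left out (-0.37 to -0.19). The sums of all marker lists are of deposited values, which carry the higher median of the knockout arrays. Such linear sums rest mostly on the brightest markers of a list. Among the knockout livers, replicate 2, which held the highest knockout value of 22 of the 31 genes, had the highest sums of Kupffer cell and macrophage (5059), dendritic cell (630) and sinusoidal endothelial (4595) markers. Knockout replicate 1, which held the lowest knockout value of 16 of the 31 genes, had nearly the same Kupffer cell and macrophage sum (5051). Knockout replicate 2 had the lowest sums of T and NK cell (1151) and monocyte and neutrophil (830) markers, and its hepatocyte and B cell sums lay between those of the other 2. Rescued replicates 2 and 4, above the rescued mean for most of the genes, had the higher Kupffer cell and macrophage sums of their group, 5465 and 4685 against 4238 and 3658 in replicates 1 and 3. Their monocyte and neutrophil sums were also the higher ones, 833 and 751 against 647 and 619. Lyz2, by far the brightest of these markers, was at 9.08 and 8.87 in replicates 2 and 4, against 8.51 and 8.40 in 1 and 3. Of the dimmer markers, S100a8 and Csf3r were also higher in replicates 2 and 4, and S100a9 was lower. Ccr2, Ly6g and Itgam had no such order. The part of these cells in the differences and in the pattern over livers was not tested.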

How the data were processed

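Total RNA was extracted with Trizol and biotin-labelled for an Affymetrix Mouse Gene 1.0 ST array, per the labels' protocols. For each array the authors deposited linear intensity values by probe set, from 5.41 to 17351. RMA and Partek are named, without versions, per the submitters' processing notes. The last scaling step and the genome build are not given in the sources used here.

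Of 27541 rows, 21631 had 1 gene symbol in the platform annotation, 1317 several and 4593 none. Log2 was taken of the deposited intensity values, with the brightest row for each gene. Dim genes were kept. The group difference was fitted in R 4.3.3 by limma 3.58.1 (lmFit, eBayes) as a two-sided test without covariates, and p-values of the 19933 genes were adjusted together by the Benjamini-Hochberg method, with calls at 0.05. The fit was tested on simulated data. Values are log2 intensities as mean ± SD. The number of arrays limits the precision. At most 3.79% of values were equal between any pair of arrays.

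The genes and lists were chosen with earlier results of these data known, so no test over a list is given. Values per liver are given for the called genes, for the 8 largest differences and for further genes picked by role after their values were seen. In the other lists called genes are named. Alternatives were 3 rescalings, 2 filters on dim genes, averaged probe sets, a trended robust spread, a block on the replicate number, array weights, other thresholds and leaving out each array. Figures were drawn with matplotlib 3.10.9.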

Additional observations from a re-analysis of the deposited data

Results flagged for a closer look

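For 2 of the 31 genes, 1 of the 4 rescued livers lay far from the other 3, by a gap above Dixon's 95% critical value for 4 values relative to the group's range. Mx2 was at 5.42 in rescued replicate 1 and at 6.14 to 6.27 in the other rescued livers, although Mx2 was not above background. Oas3 was at 6.09 in rescued replicate 3 and at 6.41 to 6.46 in the others. Chance flags about 1 in 20 groups, and 31 groups were examined.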

How the results depend on the processing

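The count of interferon-stimulated genes called higher, 1 as deposited, was 0 after quantile normalization, median centring and cyclic loess and at an adjusted p under 0.01. It was 2 among genes above the median level, among genes above background and with trend and robust spread, 4 at an adjusted p under 0.1, and 0 to 2 with each array left out. The count called lower, also 1, was 4 after median centring, 0 with the replicate block (Dhx58, -0.26 with adjusted p = 0.0751), 0 at 0.01, 4 at 0.1 and 0 to 1 with an array left out. In the other pathway lists the 13 higher calls were 4 after median centring, 8 after cyclic loess, 2 at 0.01, 20 at 0.1 and 3 to 13 with an array left out, and the 4 lower calls were 11 after median centring, 1 at 0.01, 9 at 0.1 and 1 to 5 with an array left out. The share of all genes called higher was 9.54% and lower 4.85% as deposited, 4.51% and 5.32% after quantile normalization, 3.37% and 9.04% after median centring, and 4.38% and 5.36% after cyclic loess. It was 10.4% and 9.75% among genes above the median level and 11.7% and 8.16% among genes above background. With trend and robust spread it was 9.89% and 5.15%, and with the replicate block 6.19% and 3.54%. With an array left out it was 2.25% to 11.0% higher and 2.09% to 5.34% lower. Shares of all genes at 0.01 and 0.1 were not counted. The median difference of the 31 genes moved to -0.082 after median centring, where the median of all genes is near 0 by construction. Over 16 alternatives, 409 of 485 gene values kept their sign and side of the threshold, 52 changed sign, 9 became called and 15 lost a call. The 2 filters on dim genes and the trended robust spread cannot change a difference, and averaged probe sets changed only that of Irf1. The replicate block gave the same differences as leaving out rescued replicate 4. The tally is therefore no measure of stability. Signs turned after quantile normalization for Ifit2 (-0.062), Mx1 (-0.045), Oas1b (-0.098), Oas3 (-0.107), Ifi35 (0.040), Xaf1 (-0.0082), Cxcl10 (0.012) and Gbp3 (-0.082). They turned after median centring for Ifit2 (-0.0069), Oas1b (-0.040), Oas3 (-0.064), Gbp3 (-0.084), Gbp7 (-0.044) and Psmb8 (-0.082). After cyclic loess they turned for Ifit2 (-0.064), Mx1 (-0.047), Oas1b (-0.10), Oas3 (-0.112), Ifi35 (0.026), Xaf1 (-0.0099), Gbp3 (-0.089) and Psmb8 (-0.012), and with array weights for Psmb8 (-0.0083). With the replicate block they turned for Ifit1 (0.013), Ifi35 (0.027) and Cxcl10 (0.057). With an array left out, differences that crossed 0 ran from -0.30 to 0.011 for Irf7, -0.15 to 0.0074 for Irf8, -0.14 to 0.066 for Irf9, -0.22 to 0.055 for Ifih1, -0.18 to 0.034 for Ifit1, -0.22 to 0.15 for Ifit3, -0.025 to 0.26 for Mx2, -0.063 to 0.15 for Oas3, -0.054 to 0.027 for Ifi35, -0.028 to 0.17 for Xaf1, -0.14 to 0.093 for Cxcl10, -0.11 to 0.12 for Gbp3, -0.057 to 0.13 for Gbp7 and -0.029 to 0.036 for Psmb8. The cause of these changes was not tested. Same-numbered arrays of the groups correlated in their deviations from the group means at 0.15, 0.0028 and 0.0053, so the numbers were not taken as pairs. The counts of genes whose groups do not overlap after rescaling were chosen after seeing the data. With 7 arrays, differences of dim genes are the least certain, since values near background have little range.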
